A study of Mus musculus with 9 samples.

Results

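The genes described here encode the collagens, the laminin chains and a small set of basement membrane glycoproteins, namely fibronectin (Fn1), the nidogens (Nid1 and Nid2), perlecan (Hspg2), agrin (Agrn) and Sparc. The set takes in every row of the count table whose symbol is a collagen chain or a laminin chain, or one of those 6 names, with at least 1 count in any library. Of the 50600 rows of the table, 61 matched the names and 54 of these held a count: 39 collagen chains, 9 laminin chains and the 6 glycoproteins. The other 7 (Col3a1, Col6a4, Col6a6, Col10a1, Col13a1, Lama1 and Lama2) had no count in any of the 9 libraries.

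RNA was sequenced from 9 mouse libraries in 3 groups of 3, each replicate from a different mouse. Organoids of the small intestine (genotype WT, strain C57BL/6) received conditioned medium (cM) for 24 hr. By the titles, 3 of these libraries were in cM of tumoroids (T-cM) and 3 in cM of organoids (WT-cM). The third group was untreated tumoroids (genotype Apc1638N/+, strain MIX), epithelial cultures from intestinal tumours. In all 6 organoid libraries the title and the treatment field contradict each other on the medium. Groups therefore carry the name in the title (T-cM-titled, WT-cM-titled), and should the treatment field hold the truth, every direction between them is the opposite. All cultures grew in drops of Matrigel, a basement membrane extract of tumour origin that was dissolved before the RNA was taken. Organoid medium held EGF, Noggin and R-spondin, while the methods give tumoroids a medium without R-spondin and take them from older mice, so genotype, strain, medium and donor age cannot be told apart between tumoroids and organoids.

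A basement membrane is a thin sheet of matrix under every epithelium. Its laminin sheet is built of trimers of an alpha, a beta and a gamma chain and is bound by receptors at the base of the cell, and a further network is collagen IV, also made of trimers. Nidogens and the heparan sulphate proteoglycans perlecan and agrin link the 2 networks and tie them to the cell. In the intestine, epithelial cells make some laminin chains themselves, whereas the fibrillar collagens, collagen VI, nidogens and much of the collagen IV are classically products of the mesenchyme. Matrigel supplies laminin, collagen IV and nidogen as protein from outside, whereas the values below are transcripts only.

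Promoter sequences are shown for the genes that the results turn on, as sets that move together or apart: Lama5, Lamb2 and Agrn, chains and a proteoglycan that were higher in T-cM-titled organoids, Nid1, which fell in tumoroids, and the neighbours Col4a5 and Col4a6, of which Col4a5 was called in tumoroids and Col4a6 stayed near 0. RefSeq windows on GRCm38.p6 (250 bases before to 50 after a gene's start) were matched for 38 of the 54 genes. Each sequence below runs 5′ to 3′ on the strand of its gene, upstream of the start and ending before the first exon in the Gencode annotation (release M21, same build). Capitals mark the letters of 5 motifs searched on both strands.
Lama5 (minus strand, chr2:180225860-180226109): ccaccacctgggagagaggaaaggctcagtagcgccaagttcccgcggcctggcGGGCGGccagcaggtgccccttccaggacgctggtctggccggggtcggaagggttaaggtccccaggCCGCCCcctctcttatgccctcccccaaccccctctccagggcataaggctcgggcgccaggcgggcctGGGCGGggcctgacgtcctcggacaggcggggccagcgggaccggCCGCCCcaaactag
Lamb2 (plus strand, chr9:108479612-108479735): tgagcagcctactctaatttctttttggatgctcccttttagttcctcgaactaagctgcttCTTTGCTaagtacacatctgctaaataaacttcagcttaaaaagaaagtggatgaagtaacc
Agrn (minus strand, chr4:156197489-156197738): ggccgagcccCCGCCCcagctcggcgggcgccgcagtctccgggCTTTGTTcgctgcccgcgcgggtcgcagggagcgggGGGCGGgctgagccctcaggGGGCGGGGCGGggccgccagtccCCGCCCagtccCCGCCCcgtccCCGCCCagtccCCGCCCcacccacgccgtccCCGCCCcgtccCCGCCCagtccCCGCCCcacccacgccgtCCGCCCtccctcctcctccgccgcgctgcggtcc
Nid1 (plus strand, chr13:13437352-13437550): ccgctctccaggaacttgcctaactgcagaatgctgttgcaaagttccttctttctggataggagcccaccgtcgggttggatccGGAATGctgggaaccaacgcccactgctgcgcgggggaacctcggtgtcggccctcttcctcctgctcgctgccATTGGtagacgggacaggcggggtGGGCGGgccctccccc
Col4a5 (plus strand, chrX:141475169-141475384): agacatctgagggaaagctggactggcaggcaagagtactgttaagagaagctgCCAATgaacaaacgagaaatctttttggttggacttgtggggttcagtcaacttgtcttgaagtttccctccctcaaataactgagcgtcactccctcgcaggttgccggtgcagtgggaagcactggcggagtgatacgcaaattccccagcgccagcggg
Col4a6 (minus strand, chrX:141474077-141474326): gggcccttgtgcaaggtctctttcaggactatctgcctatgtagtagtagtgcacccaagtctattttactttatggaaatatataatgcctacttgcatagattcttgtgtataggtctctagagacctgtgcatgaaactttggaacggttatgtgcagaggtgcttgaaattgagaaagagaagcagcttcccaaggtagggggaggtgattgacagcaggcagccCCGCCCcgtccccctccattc

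The motifs were the AP-1 site TGANTCA, the TEAD site GGAATG, the TCF/LEF site CTTTGNT, the CCAAT box and the GC box GGGCGG, where N is any base and matches that overlap were each counted. Lama5 held 4 GC boxes and Agrn held 12 with 1 TCF/LEF match, while the stretch of Lamb2 held 1 TCF/LEF match and no GC box. Nid1 held 1 TEAD, 1 CCAAT and 1 GC box match, Col4a5 held 1 CCAAT box and Col4a6 held 1 GC box. Over the full windows of the 38 genes, 25 held a GC box, 14 a CCAAT box, 8 a TCF/LEF match, 6 a TEAD match and 1 an AP-1 match. The shares over all 27025 genes with a window were 38.2%, 41.1%, 20.9%, 16.6% and 8.97%, in the same order. These are descriptions of letters in these windows only.

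Between 16541635 and 25170966 reads were counted per library. The floor used here, 3 counts in a library, corresponds to 0.103 to 0.204 CPM (reads scaled to a common library size, with TMM factors), a limit that covers counting error only. Levels are compared between genes as TPM, which is scaled by gene length, and between libraries as CPM or TPM. Genes that reached 1 TPM in any library were tested with edgeR's quasi-likelihood test and Benjamini-Hochberg adjustment over all 16208 such genes, and a gene was called at an adjusted p under 0.05 with a log2 fold change beyond 1 in either direction. The median log2 fold change of all genes between tumoroids and organoids was 0.165, and moved to 0.27 with upper-quartile scaling and to 0.518 on log2(TPM + 1). The tissue label was checked with 9 epithelial markers (Epcam, Cdh1, Vil1, keratins and Cdx genes), whose summed TPM was 11400 to 16120 in organoids and 11970 to 13770 in tumoroids, although 4 of them were called lower and 1 higher there. In bulk libraries, fewer cells of a type and less RNA per cell cannot be told apart.

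The tumoroids carried far more basement membrane transcript than the organoids. The 54 genes together took 0.0331% to 0.0486% of the counts in the 6 organoid libraries, and 0.130%, 0.288% and 0.301% in tumoroids 1, 2 and 3. As summed TPM they stood at 113.4 to 162.6 in organoids and at 410, 978.1 and 1009 in tumoroids. Among the genes described, most of the organoid total came from 4, Agrn, Lamb3, Nid2 and Lamc1, in falling order of mean TPM (58.8, 31.2, 11.6 and 11.1). In tumoroids the order among the genes described was Agrn, Lama5, Fn1, Lamb3 and Lamb2 (162.9, 142.2, 80.7, 73.5 and 49.6), and each neighbour overlapped the next except Lamb3 and Lamb2. In organoids Agrn lay above Lamb3 and Lamb3 above Nid2 in every library, while Nid2 and Lamc1 overlapped.

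**Figure D1:**
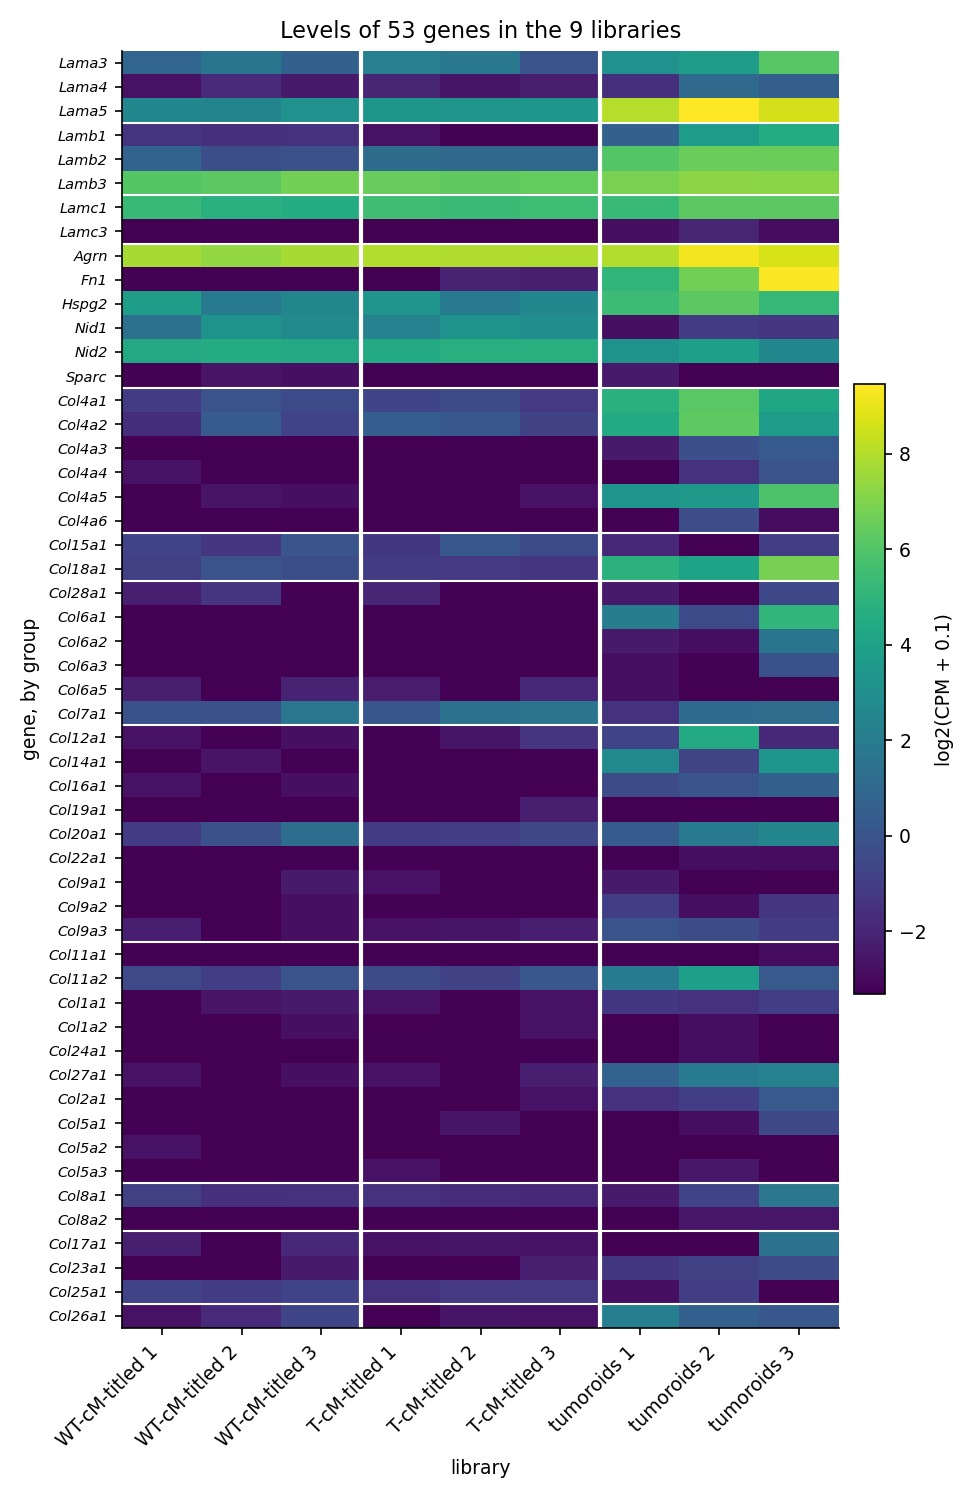
Level of 53 of the genes (rows, grouped by family, white lines between groups) in each of the 9 libraries (columns), as log2(CPM + 0.1). Lama5, Lamb2, Col4a1, Col4a2, Col4a5, Fn1 and Col18a1 are brighter in all 3 tumoroid libraries, the 2 nidogens are darker, and most fibrillar collagens are dark in every library.

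Of the 54 genes, 26 reached a TPM of 1 in some library and were tested, but 16 of these did so in tumoroids alone and therefore had to be higher there. In tumoroids against the mean of both organoid groups, 20 were called higher, where 21% of all genes tested were, and 2 were called lower, where 12.1% were (Nid1 and Nid2). The median of the 26 was 5 on the log2 scale, and 3.99 with the 2 genes that had no organoid count set to their lower bound. With the test refitted on genes that reached 1 TPM in an organoid library, a set chosen after seeing the data, 6 of 10 were called higher against 14.4% of 13759 genes, and 2 of 10 lower against 13.2%. The median log2 fold change of the 10 was 1.58, from the test over all 16208 genes, and that of the 13759 genes was -0.0123. The 3 tumoroid libraries lay above all 6 organoid libraries for 19 of the 26 (25.6% of all genes tested) and below them for 2 (20.2%).

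**Figure D2:**
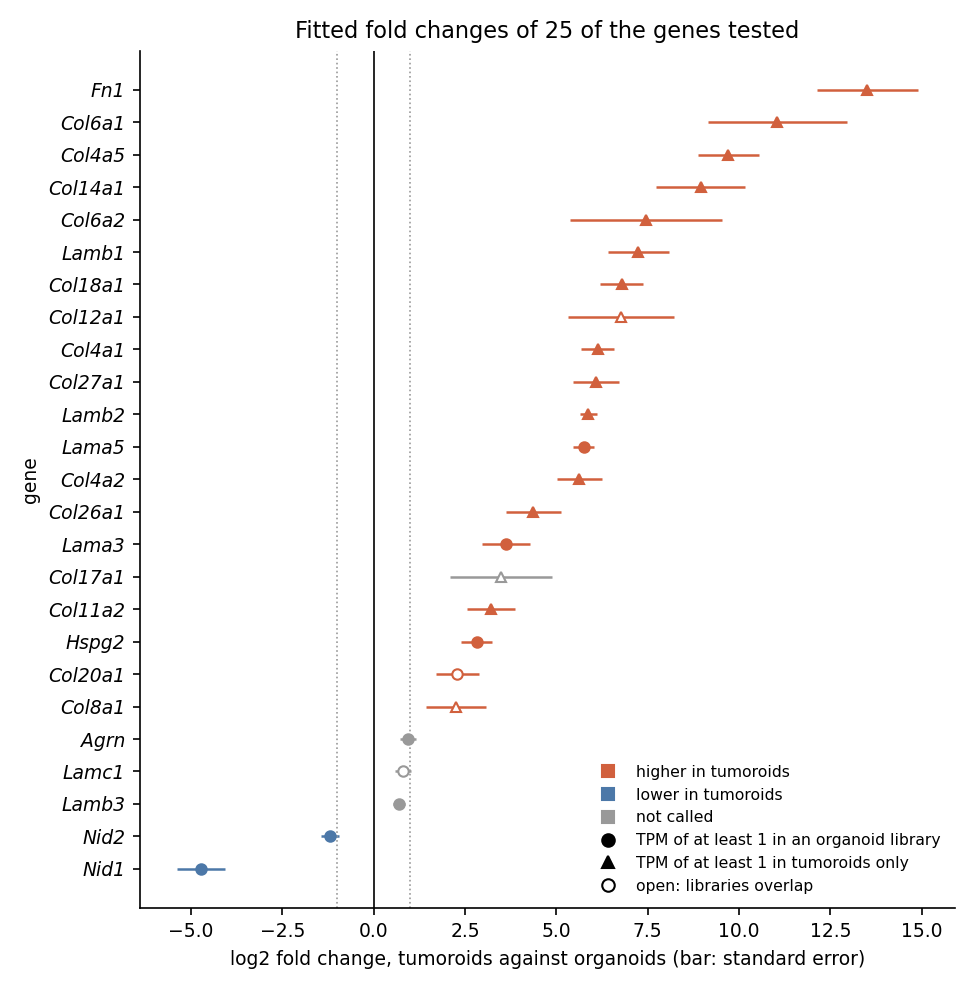
Fitted log2 fold change of 25 of the tested genes in tumoroids (3 libraries) against organoids (6 libraries), with its standard error as a bar and dotted lines at -1 and 1. All but Nid1 and Nid2 lie right of 0, and Col17a1, left grey, turns to the other side without tumoroid 3. The values of Fn1, Col6a1, Col4a5, Col14a1 and Col6a2 rest on 4 organoid counts or fewer and are no bound.

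Among laminin alpha chains, Lama5, the alpha chain of the main laminins under mature gut epithelium, was the most changed. Its TPM was 2.44, 2.15 and 2.21 in T-cM-titled organoids, 1.41, 1.11 and 1.72 in WT-cM-titled organoids and 75.8, 228.7 and 122.2 in tumoroids. The tumoroid libraries lay far above all 6 organoid libraries, and the log2 fold change was 5.75 (SE 0.289, edgeR adjusted p = 1.2e-06), or 53.9-fold. Lama3, the alpha chain of the laminin that anchors epithelia at hemidesmosomes, had TPM of 1.12, 0.76 and 0.20 in T-cM-titled organoids, 0.42, 0.68 and 0.31 in WT-cM-titled organoids, and 2.64, 4.42 and 23.1 in tumoroids. Tumoroid 3 stood apart for Lama3, and the log2 fold change of 3.62 (SE 0.664, edgeR adjusted p = 0.00143) became 2.10 without it. Lama4, a chain of vessel and muscle laminins, reached at most 0.63 TPM and was not tested.

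Among beta chains, Lamb2 rose as Lama5 did. Its TPM was 0.92, 0.77 and 0.75 in T-cM-titled organoids, 0.69, 0.29 and 0.30 in WT-cM-titled organoids, and 35.3, 56.5 and 56.9 in tumoroids. The log2 fold change was 5.87 (SE 0.238, edgeR adjusted p = 7.51e-07), with no overlap between groups. Lamb1, the other beta chain that pairs with Lamc1, was near 0 in organoids (0 to 0.07 TPM, 16 counts over 6 libraries) and had 0.46, 4.77 and 8.42 TPM in tumoroids. Its log2 fold change was 7.25 (SE 0.834, edgeR adjusted p = 8.51e-05), and 6.40 without tumoroid 3. Lamb3, the beta chain of the hemidesmosome laminin, already stood at 26.5 to 38.0 TPM in organoids, against 58.0, 83.4 and 79.1 in tumoroids. Lamb3 passed the adjusted p (0.00563 by edgeR) with a log2 fold change of 0.70 (SE 0.164), short of the threshold of 1.

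Lamc1, the common gamma chain, had 6.68 to 14.5 TPM in organoids and 15.4, 34.3 and 32.9 in tumoroids. In CPM, tumoroid 1 lay within the organoid range for Lamc1 (38.8, organoids 24.2 to 46.6), and the log2 fold change was 0.80 (SE 0.223, edgeR adjusted p = 0.0131). That adjusted p became 0.0612 without tumoroid 2 and 0.0573 without tumoroid 3. It was 0.131 with only the T-cM-titled libraries as control (log2 fold change 0.53), and 0.00942 with only the WT-cM-titled libraries (1.08). Lamc3, a gamma chain of nerve and retina, had 0 counts in organoids and 1, 4 and 1 in tumoroids, and was not tested.

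**Figure D3:**
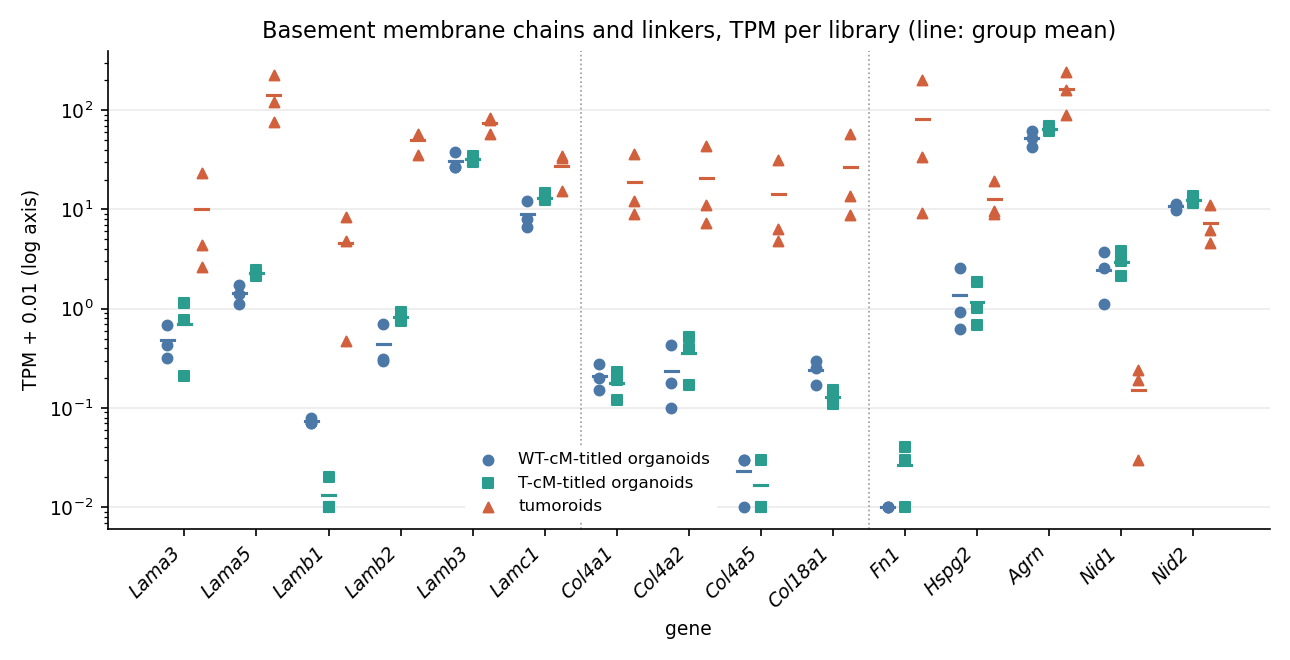
TPM + 0.01 on a log axis for laminin chains (left), collagen IV chains with Col18a1 (middle) and linking glycoproteins (right), 1 point per library and a line at the mean of each group of 3. Lama5 is at most 2.44 TPM in organoids and at least 75.8 in tumoroids, whereas Nid1 falls to between 0.02 and 0.23 TPM.

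Since the chains of a laminin assemble at fixed ratios, their TPM was also set against each other within each library, as a description with no test. The ratio of Lama5 to Lamc1 was 0.116 to 0.257 in the 6 organoid libraries, and 4.94, 6.67 and 3.72 in tumoroids. The ratio of Lamb2 to Lamc1 was 0.0358 to 0.0634 in organoids and 2.30, 1.65 and 1.73 in tumoroids. Thus Lama5 and Lamb2 were scarcer than Lamc1 in every organoid library and more abundant than it in every tumoroid library. For the hemidesmosome laminin, Lama3 was scarcer than Lamb3 in both cultures: Lama3 to Lamb3 was 0.00645 to 0.0321 in organoids and 0.0455, 0.053 and 0.292 in tumoroids.

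**Figure D4:**
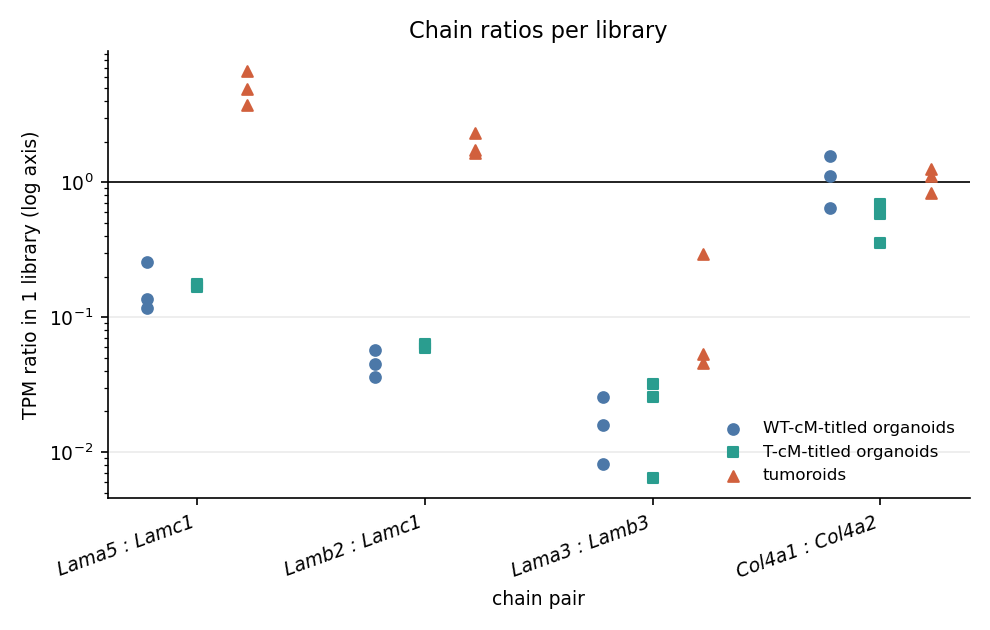
Ratio of the TPM of 2 chains in each library, on a log axis with a line at 1. Lama5 to Lamc1 and Lamb2 to Lamc1 lie below 1 in all 6 organoid libraries and above 1 in all 3 tumoroid libraries, while Lama3 to Lamb3 lies below 1 in all 9.

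Collagen IV was nearly silent in organoids and was read in every tumoroid library. Col4a1 and Col4a2, which form the common collagen IV trimer, had at most 0.27 and 0.51 TPM in organoids. In tumoroids Col4a1 had 12.2, 35.9 and 9.08 TPM, with a log2 fold change of 6.13 (SE 0.445, edgeR adjusted p = 6.18e-06). Col4a2 had 11.0, 43.4 and 7.23 TPM in the same libraries, and its log2 fold change was 5.63 (SE 0.614, edgeR adjusted p = 6.1e-05). Tumoroid 2 was highest for both, and without it the log2 fold changes were 5.35 and 4.54. The ratio of Col4a1 to Col4a2 was 1.11, 0.828 and 1.26 in the tumoroids, and 0.353 to 1.56 in organoids on few counts. These genes lie head to head on chromosome 8 (GRCm38), Col4a1 from 11198423 to 11312826 on the minus strand and Col4a2 from 11312805 to 11449287 on the plus strand, so that 22 bases of their first exons overlap.

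The other 4 collagen IV chains, which build the more restricted networks, were uneven. Col4a5 had 3 counts over the 6 organoid libraries and 4.79, 6.32 and 31.8 TPM in tumoroids, a ratio of 976 between mean tumoroid CPM and pooled organoid counts (95% Poisson interval of the organoid count 334 to 4733), or 384 without tumoroid 3. Col4a5 was called in the edgeR test (adjusted p = 1.57e-05). Its neighbour Col4a6 (starts 1308 bases apart, head to head on chromosome X) had 0 counts in organoids and 0, 19 and 1 in tumoroids. Likewise Col4a3 had 2, 21 and 33 counts and Col4a4 had 0, 7 and 25 in tumoroids, with 0 and 1 count over the organoids. Neither those 2 chains nor Col4a6 reached a TPM of 1, so they were not tested. Part of the exons of Col4a3 (563 of 9967 bases) also lies in a transcript of the other strand.

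The glycoproteins split into rising and falling members. Agrn, a proteoglycan that binds laminin and dystroglycan, had the highest mean TPM of the 54 genes in both kinds of culture. Its CPM was 249.8, 244.7 and 239.3 in T-cM-titled organoids, 215.8, 166.5 and 215.4 in WT-cM-titled organoids, and 255.5, 597 and 411.6 in tumoroids. Tumoroid 1 stood only just above the organoids, and the log2 fold change was 0.93 (SE 0.225, edgeR adjusted p = 0.00662), short of the threshold. Hspg2 (perlecan) had 3.65 to 14.1 CPM in organoids and 42.4, 74.8 and 35.9 in tumoroids, and was called at 2.81 (SE 0.425, edgeR adjusted p = 0.000448).

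Fn1, the fibrillar adhesive glycoprotein, gave a wide contrast. It had 4 counts over the 6 organoid libraries, against 726, 2812 and 18965 counts in tumoroids 1, 2 and 3, or 9.22, 33.4 and 199.6 TPM. The tumoroids themselves ranged from 32.9 to 651.4 CPM, and tumoroid 3 held the most. Mean tumoroid CPM was 7141 times the pooled organoid level (95% Poisson interval 2789 to 26210, for the organoid count), or 1867 times without tumoroid 3, and edgeR's adjusted p was 0.000132. Sparc, a collagen-binding glycoprotein of stroma, was almost unread, with 2 counts over the organoids and 2, 0 and 0 in tumoroids.

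The nidogens were the only 2 of the tested genes that fell. Nid1 had 4.97, 9.29 and 7.55 CPM in T-cM-titled organoids, 2.53, 9.42 and 6.77 in WT-cM-titled organoids, and 0.0453, 0.372 and 0.309 in tumoroids. The tumoroid values rest on 1, 10 and 9 counts, and the log2 fold change was -4.73 (SE 0.662, edgeR adjusted p = 0.000283). Nid2 had 20.7 to 26.9 CPM in organoids and 9.24, 14.6 and 6.22 in tumoroids, with a log2 fold change of -1.20 (SE 0.254, edgeR adjusted p = 0.00316). Without tumoroid 3 the value for Nid2 was -0.96, inside the threshold, and on log2(TPM + 1) it was -0.68. Of the exon bases of Nid2, 437 of 5174 also belong to an abundant gene on the other strand (Rtraf, 205 to 246 TPM in organoids and 295 to 334 in tumoroids). Its log2 fold change was -0.03, and since the strand setting of the counting is not given in the sources used here, reads of the shared bases cannot be assigned.

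Most of the remaining collagens were low even in tumoroids. Col18a1, a basement membrane collagen whose end fragment is endostatin, had 0.10 to 0.29 TPM in organoids and 13.5, 8.83 and 57.9 in tumoroids (log2 fold change 6.79, SE 0.586, edgeR adjusted p = 1.61e-05, and 5.55 without tumoroid 3). Of collagen VI, the beaded filaments of interstitial matrix, Col6a1 had no organoid count and 92, 17 and 973 counts in tumoroids. Against a floor of 3 counts per organoid library, Col6a1 was at least 75.6-fold higher in mean CPM, or at least 14.2-fold without tumoroid 3, and its edgeR adjusted p was 0.00475. Its partner chain Col6a2 had 2, 1 and 87 counts, at least 6.16-fold higher on the same floor (edgeR adjusted p = 0.0289). Without tumoroid 3, Col6a2 lay under that floor, and the adjusted p was 0.112. The third chain, Col6a3, had 1, 0 and 24 counts in tumoroids, and as with Col6a1 and Col6a2 most of them came from tumoroid 3.

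Single tumoroid lines also set the values of other chains. Col12a1, a collagen that coats fibrils, had 11, 602 and 5 counts in tumoroids, so that its log2 fold change of 6.77 (edgeR adjusted p = 0.00362) became 2.22 without tumoroid 2 (0.0926). Col17a1, the transmembrane collagen of hemidesmosomes, had 0, 0 and 80 counts, was not called (log2 fold change 3.49, edgeR adjusted p = 0.0625), and turned to -3.73 without tumoroid 3. Col8a1, a short network collagen, had 2, 13 and 93 counts, with a log2 fold change of 2.26 (adjusted p = 0.0432 by edgeR) and 0.16 without tumoroid 3. The adjusted p of Col8a1 was also above 0.05 without any 1 of the 6 organoid libraries (0.0591 to 0.0864 by edgeR). Col11a2 had 80, 388 and 31 counts, and its log2 fold change of 3.21 (SE 0.66, edgeR adjusted p = 0.00279) became 1.74 without tumoroid 2. Col14a1 had 1 count over the organoids and 152, 14 and 302 in tumoroids, a ratio of 643.8 (95% Poisson interval 115.6 to 25430), or 402.4 without tumoroid 3.

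A further 3 chains were called. Col27a1 had 5 counts over the organoids and 34, 105 and 141 in tumoroids (log2 fold change 6.08, SE 0.635, edgeR adjusted p = 4.75e-05). Col26a1 was highest in tumoroid 1 (99, 38 and 29 counts, log2 fold change 4.37, or 3.45 without that library). Col20a1 had 27, 97 and 170 counts in tumoroids but overlapped the organoids, where WT-cM-titled replicate 3 held 53 (log2 fold change 2.28, edgeR adjusted p = 0.00929, but 0.1 with only the WT-cM-titled libraries as control). Of its exon bases, 79 of 5142 also belong to a gene on the same strand (9230112E08Rik, 2.39 to 3.74 TPM in organoids and 2.66 to 6.02 in tumoroids). The fibrillar chains Col1a1, Col1a2, Col3a1 and Col5a1 stayed under 1 TPM in every library and were not tested. Col1a1 had 0 to 2 counts per organoid library and 7, 7 and 12 in tumoroids, with no overlap between them. Col1a2 had 0, 1 and 0 counts in tumoroids, Col5a1 had 0, 1 and 17, and Col3a1 had none.

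Markers of other cell types were read beside these values. Of 10 fibroblast and mesenchyme markers, 8 stayed under 1 TPM in every tumoroid library, Lum, Thy1, Twist1 and Twist2 were at 0 there and Dcn reached 0.02. Their summed TPM was 2.03 to 5.36 in organoids and 1.63 to 3.43 in tumoroids. Prrx1 made up much of the organoid sum and was called lower in tumoroids (0.98 to 3.11 TPM against 0 to 0.01, log2 fold change -8.71). Without Prrx1 the list summed to 1.05 to 2.61 in organoids and 1.63 to 3.43 in tumoroids, where Postn lay above all 6 organoid libraries (0.72, 0.10 and 0.13 TPM against at most 0.05). The part of this list in the results was not tested. Of 5 smooth muscle markers, Acta2 was higher in tumoroids (7.41, 3.89 and 92.5 TPM in tumoroids 1, 2 and 3, highest in the library that was highest for Fn1 and Col6a1), while Des, Myh11, Tagln and Cnn1 reached at most 0.35 TPM. The summed TPM of that list was 0.2 to 1.31 in organoids and 4.28 to 92.7 in tumoroids. Its part in the result was not tested.

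Endothelial markers summed to 0.48 to 0.73 TPM in organoids and 0.29 to 3.06 in tumoroids, with Kdr and Emcn at 0 everywhere and Cdh5 at 1.58 in tumoroid 3. Leukocyte markers summed to 1.11 to 2.79 in organoids and 13.8 to 61.6 in tumoroids, where Cd68 (11.9, 16.6 and 58.3 TPM) and Csf1r (1.82, 15.6 and 3.30) made up most of the sum and Ptprc, the defining leukocyte marker, was at most 0.14. Stomach markers summed to 0.39 to 2.58 in organoids and 8.75 to 18.6 in tumoroids, with Muc5ac and Muc6 read in tumoroids alone. Glia and neuron markers (2.23 to 6.83 against 1.03 to 4.29) and mesothelium markers (1.88 to 18.7 against 7.65 to 21.04) overlapped between the cultures. The part of the leukocyte and stomach markers in the results above was not tested.

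The other comparison asks whether the medium changed these genes in organoids within 24 hr, with the replicate number as a block because same-numbered organoid libraries deviated together. No gene of the set was called in either direction, where 0.673% of all genes tested were called higher and 0.432% lower. Of the 26 tested, 16 reached 1 TPM in tumoroids alone, and those near 0 in organoids could hardly pass here. By edgeR, 9 of the 26 had an unadjusted p under 0.05, as did 22% of all genes tested. Without the fold threshold, 5 were higher in T-cM-titled organoids at an adjusted p under 0.05 and none was lower, against 5.03% and 5.05% of all genes tested. Among them were the laminin chains Lamc1, Lama5 and Lamb2, and Agrn. The median over the 26 was 0.133 on the log2 scale, against 0 for all genes.

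Each of the 5 was higher in every pair, as were 7 of the 26 in all and 3066 of all 16208 genes tested. The 3 T-cM-titled libraries of each lay above all 3 WT-cM-titled libraries, as they did for 5.12% of all genes tested. Since the 5 were picked by a fit blocked on these pairs, their agreement across pairs is no separate support. Lamb1 and Col18a1 were the 2 tested genes with the groups apart the other way, as 5.28% of all genes tested were. Lamc1 had 46.6, 41.4 and 44.1 CPM in T-cM-titled organoids 1, 2 and 3 and 38.2, 27.9 and 24.2 in the WT-cM-titled ones, and its log2 fold change was 0.58 (SE 0.108, adjusted p = 0.000472 by edgeR).

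Lama5 had 10.79, 9.97 and 10.54 CPM in T-cM-titled and 6.10, 5.29 and 8.59 in WT-cM-titled organoids, and its log2 fold change was 0.67 (SE 0.149, edgeR adjusted p = 0.00324). Lamb2 was low in both, at 2.17, 1.90 and 1.92 CPM against 1.59, 0.73 and 0.80 (log2 fold change 0.98, SE 0.306, edgeR adjusted p = 0.0377). Agrn differed least in size, with a log2 fold change of 0.32 (SE 0.0823, edgeR adjusted p = 0.0111) from the CPM given above. That these 5 passed the adjusted p depends on the block and on pair 2: none passed without the block (smallest adjusted p of any gene 0.601) or without replicate 2. On log2 TPM with limma, no gene of the whole table passed. Lamb2 missed the threshold in 9 of 13 alternatives, among them voom (adjusted p = 0.0864), DESeq2 (0.265) and filterByExpr (0.0563), against 6 for Lama5, 5 for Agrn and 4 for Lamc1.

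**Figure D5:**
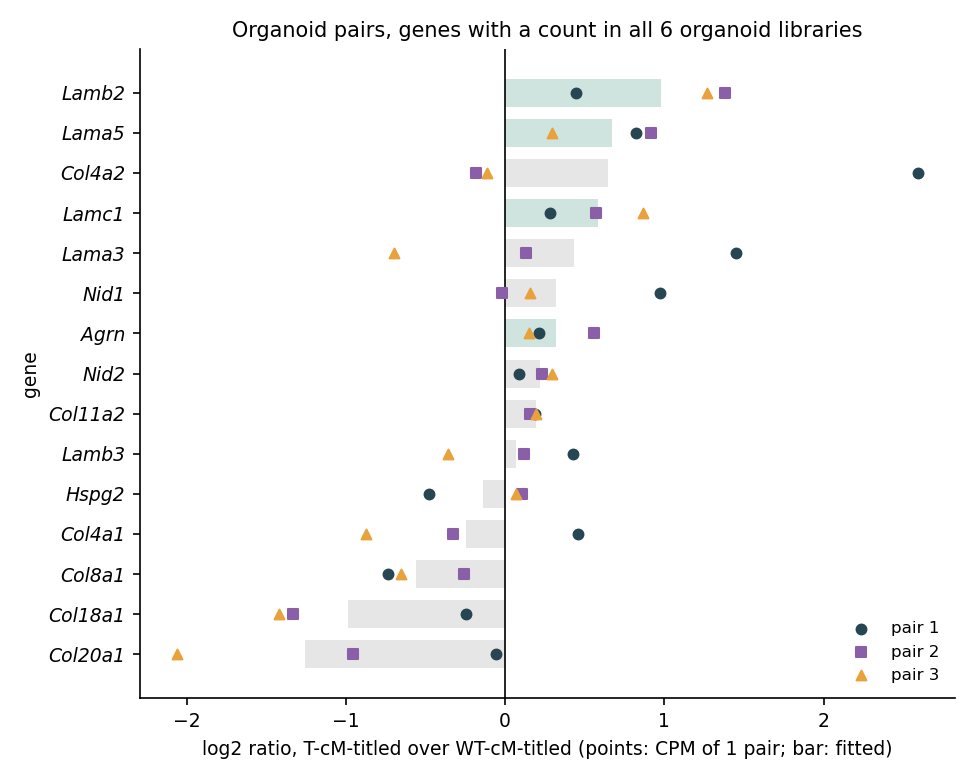
Log2 ratio of T-cM-titled to WT-cM-titled CPM in each of the 3 pairs (points) with the fitted log2 fold change (bar, green where the adjusted p was under 0.05), for 15 tested genes with a count in all 6 organoid libraries. The points of Lamc1, Lama5, Lamb2 and Agrn all lie right of 0, whereas Lamb3, Lama3, Col4a1 and Hspg2 have points on both sides.

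Other chains did not pass. Lamb3 had 89.7, 80.0 and 86.0 CPM in T-cM-titled and 66.8, 73.8 and 110 in WT-cM-titled organoids (log2 fold change 0.07, edgeR adjusted p = 0.758). Lama3 (0.43, adjusted p = 0.407), Hspg2 (-0.14, 0.703), Nid1 (0.32, 0.283) and Nid2 (0.22, 0.226) missed the threshold by edgeR. Lamb1 had 1, 0 and 0 counts in T-cM-titled and 5, 4 and 6 in WT-cM-titled organoids, so that the fitted value was -3.37 with an edgeR adjusted p of 0.0881 on counts this low, and limma voom called Lamb1 lower. None of the 14 collagens passed in the edgeR test, and 8 of them had a log2 fold change below 0, as did 48.8% of all genes tested. Of these 14, 13 reached 1 TPM in tumoroids alone, and for those near 0 in organoids the test could not decide. In 7 of the 14 collagens no pair was above 0, as in 4384 of all 16208 genes tested, ties included. They were Col20a1 at -1.26 (edgeR adjusted p = 0.0716), Col18a1 at -0.99 (edgeR adjusted p = 0.273), Col8a1, Col14a1, Col26a1, Col6a1 and Col6a2. Col14a1 had 1 count over the organoids, and Col6a1 and Col6a2 had none. Col20a1 was called lower by edgeR with no TPM filter and without replicate 1. Of the mesenchyme markers, Prrx1 was called lower in T-cM-titled organoids (log2 fold change -1.11, edgeR adjusted p = 0.000302), and no other marker list had a gene called between the organoid groups.

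For Lamc1, Lama5, Lamb2 and Agrn, each organoid group was also set against the tumoroids, which both comparisons share. With only the WT-cM-titled libraries as control, tumoroid log2 fold changes were 1.08, 6.07, 6.34 and 1.08 in that order. Against T-cM-titled organoids alone they were 0.53, 5.43, 5.40 and 0.78. These genes were picked because they were higher in T-cM-titled organoids, so the smaller values against that group follow from the choice. The smaller values are therefore no separate sign of a shift towards tumoroids.

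Genes that process collagen or complete the basement membrane were taken from 4 lists, 53 genes in all, of which 35 were tested. In tumoroids 19 of the 35 were called higher and 4 lower, where 21% and 12.1% of all genes tested were. With the test refitted on the 13759 genes that reached 1 TPM in an organoid library, 15 of 29 were called higher and 4 lower, where 14.4% and 13.2% of those 13759 genes were. Of 17 genes for collagen folding and export, 14 were tested, 5 rose and 1 fell. Crtap, of the prolyl 3-hydroxylation complex, had a log2 fold change of 2.26, P3h4 and Plod1, which act in lysyl hydroxylation, had 3.18 and 2.18, and Serpinh1, the collagen chaperone of the endoplasmic reticulum, had 4.84 from a level of at most 0.12 TPM in organoids. The gene that fell was P4hb, the disulphide isomerase that is also a subunit of prolyl 4-hydroxylase. It had 2984 to 3685 TPM in organoids and 949.8, 959.7 and 1032 in tumoroids (log2 fold change -2.27, SE 0.188, edgeR adjusted p = 1.3e-05), and the summed TPM of this list went from 3312 to 4019 in organoids to 1483 to 1684 in tumoroids. Mia3, which exports collagen from the endoplasmic reticulum, passed the adjusted p at -0.74, short of the fold threshold.

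Of 14 genes for propeptide cleavage and crosslinking, 4 were tested, the 10 others staying under 1 TPM in tumoroids. All 4 were called higher in tumoroids, where 21% of all genes tested were. Pxdn (0, 21 and 112 counts in tumoroids) reached 1 TPM in tumoroid 3 alone and therefore had to be higher. For Pxdn and Pcolce the tumoroids overlapped the organoids. Loxl4, a lysyl oxidase, had 0.26, 1.15 and 1.18 TPM in T-cM-titled organoids, 0.07, 0.03 and 0.29 in WT-cM-titled organoids and 14.8, 181.1 and 35.9 in tumoroids. It was called in both comparisons, with a log2 fold change of 7.16 in tumoroids (edgeR adjusted p = 8.08e-05) and 2.59 between the organoid groups (SE 0.488, edgeR adjusted p = 0.000587). The organoid call of Loxl4 was lost with voom, DESeq2, filterByExpr and log2 TPM, and without the block or replicate 2. Bmp1, the procollagen C-proteinase, rose in tumoroids (1.27) but was lower in T-cM-titled organoids (-0.71, edgeR adjusted p = 0.0043), with pair 1 the other way in TPM (3.99 against 3.84).

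Of 15 further basement membrane proteins, 11 were tested, 5 rose in tumoroids and 3 fell. Npnt, an integrin ligand of basement membranes, had 5.66, 3.22 and 2.89 TPM in T-cM-titled organoids, 2.90, 1.19 and 0.81 in WT-cM-titled organoids and 44.1, 43.8 and 93.2 in tumoroids. Its log2 fold change was 4.08 in tumoroids (edgeR adjusted p = 2.3e-05) and 1.35 between the organoid groups (SE 0.183, edgeR adjusted p = 7.28e-06). The call for Npnt between the organoid groups was lost without the replicate block, on log2 TPM values and without replicate 2. The genes that fell in tumoroids were Papln (-4.09), Fbln1 (-2.20) and Tinag (-1.30). Between the organoid groups Fbln1 was higher (0.39, edgeR adjusted p = 0.00414), and Smoc2 (-0.61, 4.46e-05) and Tinag (-0.47, 0.0113) were lower by edgeR.

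Of 7 receptors other than integrins, 6 were tested, 5 rose in tumoroids and none was called lower. Bcam, a receptor of the laminin alpha chain encoded by Lama5, had 4.12 to 7.62 TPM in organoids and 281, 293.4 and 372.6 in tumoroids (log2 fold change 5.35, SE 0.207, edgeR adjusted p = 5.44e-07). Ddr1, a collagen receptor kinase, and the heparan sulphate receptors Sdc1 and Sdc4 had log2 fold changes of 1.85, 1.69 and 1.45, and Cd44 had 2.91. Dag1, the receptor of agrin and perlecan, passed the adjusted p at -0.92 (0.00453 by edgeR), short of the fold threshold. Between the organoid groups only Sdc1 passed the adjusted p among the 6 receptors tested (-0.26, 0.0298 by edgeR). Over the 4 lists, Loxl4 and Npnt were the 2 genes called between the organoid groups, both higher in T-cM-titled organoids.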

How the data were processed

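RNA was measured in 9 libraries made with a stranded poly(A) kit and sequenced paired-end. The authors aligned reads with STAR to mm10 with Gencode vM13, and the counting tool and its strand setting are not given in the sources used here. The deposited tables hold raw counts per gene and TPM made by the authors. No column belonged to another sample.

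Samples were grouped by title. Counts were tested with edgeR 4.0.16 (R 4.3.3, quasi-likelihood, TMM, Benjamini-Hochberg adjustment) over genes that reached 1 TPM in any library. Tumoroids were compared with the mean of both organoid groups over 9 libraries, without a block. The organoid groups were compared over 6 libraries, blocked on replicate number. Deviations of same-numbered organoid libraries from their group means correlated (r = 0.546, 0.338 and 0.547), whereas tumoroid numbers did not pair with organoids (r from -0.0705 to 0.196). None of the 36 pairs of libraries held identical counts. Each replicate is a different mouse. Intervals and floors cover counting error only, and library totals limit the precision of low genes.

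The members and gene lists were chosen with earlier results of these data known. Genes were named by rule: members past an adjusted p of 0.05 between the organoid groups, the tested laminin and collagen IV chains and the 6 glycoproteins, up to 10 per direction called in tumoroids by size (libraries not overlapping, averaging 100 counts or more in the higher culture), the 10 highest by mean TPM per culture, and up to 5 accessory genes per direction and comparison by p. One gene that these rules name is not reported here, although the counts and sums include it. Other genes were named after their values were seen. The scripts were tested on simulated counts. Alternatives were limma voom (limma 3.58.1), DESeq2 1.42.0, other scalings and filters, log2(TPM + 1) and log2(TPM + 0.1), no fold threshold, the block added or dropped, 1 library left out, 1 organoid group as control, and groups taken from the treatment field.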

Additional observations from a re-analysis of the deposited data

How the results depend on the processing

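In tumoroids against organoids, 20 genes higher and 2 lower became 33 higher (of 54) with no TPM filter and 6 higher (of 10) with a TPM of at least 1 in an organoid library, an alternative chosen after seeing the data, since both change the genes tested. The lower count was 1 on log2(TPM + 1) and on log2(TPM + 0.1), and 1 to 2 with 1 library left out. With the replicate block it was 19 higher and 2 lower, so the block moved no count by over 1.5 times. The other alternatives gave 18 to 23 higher. Over all genes, 63.4% of calls were higher, and 78.5% on log2 TPM. With 1 library left out Col17a1 ranged from -3.73 (without tumoroid 3) to 4.06, and the call of Col8a1 was lost in 13 of 20 alternatives, of Col6a2 in 6 of 19, of Col12a1 in 4 of 19 and of Col20a1 in 1 of 22.

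Between the organoid groups, 5 genes higher at an adjusted p under 0.05 became 2 with voom, 3 with DESeq2, 0 on log2(TPM + 1) and log2(TPM + 0.1), and 0 without the replicate block (no pairing), where 904 of all genes and 7 of the set had an unadjusted p under 0.05. With 1 pair left out the count was 0 to 5, being 0 without replicate 2. Named by the treatment field, 0 were higher and 5 lower. The count lower, 0, became 1 with voom (Lamb1), 1 with no TPM filter (Col20a1) and 0 to 1 with 1 pair left out. The called count higher, 0, became 5 with no fold threshold and 0 to 1 with a pair left out, and the called count lower, 0, became 1 with voom, 1 with no TPM filter and 0 to 1. Of accessory genes, the 2 called higher became 1 (Npnt) with voom, DESeq2 or filterByExpr, 0 on either log2 TPM scale, without the block or by the treatment field, and 0 to 3 with a pair left out. With no fold threshold Fbln1 was counted higher as well. The 0 called lower became 4 with no fold threshold, 2 by the treatment field and 0 to 2. With 1 pair left out, Lamb3 ranged from -0.12 to 0.28, Lama3 from -0.16 to 0.79 and Hspg2 from -0.25 to 0.095, each with its sign turned without replicate 1. By the treatment field Lamc1 was -0.58, Lama5 -0.67, Lamb2 -0.98, Agrn -0.32, Lamb3 -0.070, Lama3 -0.43, Nid1 -0.32, Nid2 -0.22 and Hspg2 0.14. Where no construction is named, the cause was not tested. Depth limits genes near 3 counts per library, and 28 of the 54 were too low to be tested.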
